A study of Mus musculus with 2 samples.

Results

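Naive-type CD8 T cells are cytotoxic-lineage T cells that have not yet met antigen, and 150 of the 3913 immune cells from the pancreas of prediabetic NOD mice met the rule used for them here. They made up 121 of 2804 cells at 12 weeks and 29 of 1109 cells at 7 weeks. A cell was taken when it held at least 1 UMI (unique molecular identifier, a counted transcript) of Cd3d, Cd3e and Cd3g together, at least 2 of the CD8 chains Cd8a and Cd8b1 together, no Cd4, at most 1 Cd79a, no Ccl5, and at least 1 of Lef1, Dapl1 and Ccr9 together. Cells with 4 or more UMIs of 7 cell cycle genes were left out. The members were thus chosen by measured UMI counts of these 18 genes, which are given below only as a description.

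Both groups were female NOD/ShiLtJ mice, an inbred strain in which autoimmune diabetes develops spontaneously, aged 12 weeks in one group and 7 weeks in the other. CD45.1+ cells, that is, cells bearing the leukocyte surface protein of that allele, were sorted from the pancreas and sequenced from the 3' end on the 10x Genomics Chromium platform. There was 1 library per age, and how many mice each library pooled is not stated in the labels used here. Age and library therefore cannot be told apart, and no test between the ages was possible. Intervals below are 95% and cover counting error only.

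A naive CD8 T cell leaves the thymus with its receptor formed, and recirculates between blood and lymphoid organs with the help of the chemokine receptor Ccr7 and the sphingosine phosphate receptor S1pr1. Transcription factors such as Lef1, Tcf7, Satb1, Klf2 and Foxp1 keep it resting. After contact with antigen it turns on effector genes such as granzymes and the chemokines Ccl3, Ccl4 and Ccl5, and gains receptors for inflamed tissue such as Cxcr6. In NOD mice CD8 T cells that recognise beta cell antigens enter the islets and take part in the loss of beta cells.

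The members of the 2 libraries were sequenced to a similar depth. The median member held 4746 UMIs at 12 weeks and 5227 UMIs at 7 weeks, from 1473 and 1562 genes. Mitochondrial UMIs had a median share of 2.03% at 12 weeks and 2.06% at 7 weeks. The members summed to 609154 UMIs at 12 weeks and 158065 at 7 weeks. Of all barcodes, 2 occurred in both libraries, and 0 of the members had such a barcode.

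Lef1, a transcription factor of naive T cells, was found in 89.3% of members at 12 weeks and 82.8% at 7 weeks. Dapl1, a gene known from naive CD8 T cells, was found in 62.8% and 55.2%. Ccr9, the receptor for the gut and thymus chemokine CCL25, was found in 35.5% at 12 weeks and 20.7% at 7 weeks. Lef1 and Dapl1 together, without Ccr9, was the commonest combination at 12 weeks, with 46 cells, and Lef1 alone followed with 24 cells. All 3 genes were found in 22 cells, Lef1 and Ccr9 in 16, Dapl1 alone in 8 and Ccr9 alone in 5. At 7 weeks Lef1 alone was commonest with 11 cells, 8 cells held Lef1 and Dapl1, and 4 held all 3. Both CD8 chains were detected in 99 of 121 members at 12 weeks and 22 of 29 at 7 weeks.

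At the edge of the rule, 12 members at 12 weeks had exactly 2 CD8 UMIs, and 14 cells that met every other condition had 1. At 7 weeks these numbers were 6 and 4. A sum of 1 for Lef1, Dapl1 and Ccr9 admitted 8 members at 12 weeks and 4 at 7 weeks, and a sum of 0 kept out 10 and 8 cells. A single Ccl5 UMI kept out 53 cells at 12 weeks and 15 at 7 weeks, more than any other limit by 1 UMI, and admitting them would have given 174 members at 12 weeks and 44 at 7 weeks.

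**Figure D1:**
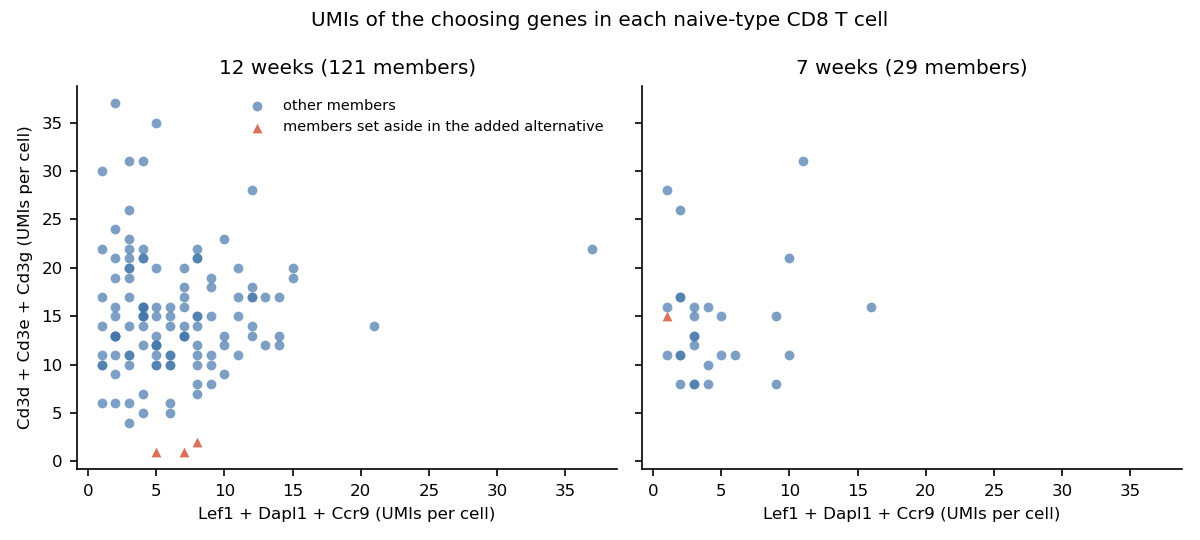
Each point is 1 member, with its UMIs of Lef1, Dapl1 and Ccr9 together on the horizontal axis and its UMIs of Cd3d, Cd3e and Cd3g together on the vertical axis, for 12 weeks (left) and 7 weeks (right). The marked members carry transcripts of another cell type, and the 3 at 12 weeks lie at the bottom, with 1, 2 and 1 Cd3 UMIs.

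Of the members, 4 stood out by transcripts of other cell types. At 12 weeks 3 cells held 11, 18 and 10 UMIs of Siglech, a lectin of plasmacytoid dendritic cells in the mouse, while no other member at 12 weeks held more than 1. The same cells held 26, 60 and 24 UMIs of Bst2, 18, 58 and 14 of Irf8, and 33, 62 and 25 of Tyrobp. They had 0 UMIs of Lef1, Dapl1 and Tcf7, and 1, 2 and 1 of the Cd3 genes, against at least 4 in every other member at 12 weeks. They entered by Ccr9, which plasmacytoid dendritic cells also express, with 5, 8 and 7 UMIs. At 7 weeks 1 cell held 17 UMIs of Tbc1d4, 13 of Maf and 8 of Pdcd1, genes known from helper and follicular helper T cells. It had 2 UMIs of Cd8a, 0 of Cd8b1 and 1 of Lef1. The other 28 members at 7 weeks together held 5, 0 and 1 UMIs of Tbc1d4, Maf and Pdcd1. Whether these 4 barcodes are doublets was not tested. Leaving them out left 118 and 28 members. The main results that they move past a threshold or by over 1.5-fold are given with and without them. Some counts of list genes that they change are given with all members only.

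Members were a larger share of the cells in the 12 week library than in the 7 week library. They were 4.32% of cells at 12 weeks (exact Clopper-Pearson interval 3.59 to 5.13%) and 2.62% at 7 weeks (1.76 to 3.73%), a ratio of 1.65 (exact interval 1.09 to 2.57). Among all CD8 T cells, taken by the same rule without its conditions on Ccl5, Lef1, Dapl1 and Ccr9, they were 29.7% at 12 weeks (25.3 to 34.4%) and 19.6% at 7 weeks (13.5 to 26.9%), a ratio of 1.52 with a lower bound of 1.005. With each cell thinned to 2000 UMIs before the rule was applied, the ratio over all cells was 1.47 (0.938 to 2.39), so at that depth the difference was within counting error.

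Against CD8 T cells with 2 or more Ccl5 UMIs, 220 cells at 12 weeks and 94 at 7 weeks, members carried more of the genes of circulating, resting T cells and less of the genes of effector cells. Ccl5 itself separates these classes, so genes that go with it had to differ. The values and the calls by adjusted p describe that separation and are no independent test of it. Levels are UMIs scaled to a class total of 1000000 in each library (CPM), and log2 ratios with their standard error (SE) come from edgeR on the 4 sums of class and library, with the library as a block. Of 5654 genes compared, 178 passed an adjusted p of 0.05 as higher in members (3.15%) and 281 as lower (4.97%).

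Igfbp4 (chr11:99041244-99054392, mm10), which encodes a secreted binder of insulin-like growth factors and is known from naive T cells, had the largest ratio among the named genes. It stood at 259 and 247 CPM in members at 12 and 7 weeks, against 20.0 and 23.1 CPM in Ccl5 CD8 T cells, a log2 ratio of 3.77 (SE 0.24). It was detected in 52.9% of members at 12 weeks, against 1.22% of B cells of nearly the same median depth (4746 and 4606.5 UMIs), which should lack it. Ccr7 (chr11:99144196-99155077) had 261 and 247 CPM in members and 45.4 and 63.3 CPM in Ccl5 CD8 T cells (log2 ratio 2.49, SE 0.22). In both libraries Igfbp4 and Ccr7 were several times higher in members.

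Of the 24 naive T cell genes outside the rule, 12 were higher in members and 0 lower, with a median log2 ratio of 0.90, against 0.01 over all genes compared. The receptor S1pr1, which guides exit from lymphoid organs, had a log2 ratio of 1.91, and the interleukin 6 receptor Il6ra one of 2.09. Its signalling partner Il6st stood at 2.11. The transcription factors Satb1 (1.59), Foxp1 (1.34), Klf2 (1.06) and Tcf7 (0.95) were higher by smaller ratios. Cd27, Cd28 and Ets1 did not pass and stood at 0.06, -0.21 and -0.00, so the naive list did not differ as a block. Among 16 quiescence genes, 5 were higher and 0 lower, led by Pik3ip1, an inhibitor of phosphoinositide 3-kinase, at 2.71 (SE 0.24), with Tsc22d3, a glucocorticoid-induced gene, at 1.81. Further named genes that were higher were Treml2 at 3.04, Plaur, the urokinase receptor, at 2.78 and Rgcc at 2.55.

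Effector genes formed the other side of the contrast. Of 28 memory and effector genes 27 were lower in members and 0 higher, with a median log2 ratio of -2.20. The calcium-binding S100a6 had 68.9 and 114 CPM in members, against 1285 and 1529 CPM in Ccl5 CD8 T cells. S100a4 had 11.5 and 0 CPM in members and 584 and 724 CPM in Ccl5 CD8 T cells. Klrc1, an inhibitory receptor of the NKG2 family, had 1 UMI in each library among members, against 280 and 106 UMIs. Of 16 cytotoxic genes and effector cytokines 13 were lower and 0 higher. The chemokine Ccl4 had 36.1 and 19.0 CPM in members and 1578 and 1015 CPM in Ccl5 CD8 T cells (log2 ratio -5.29, SE 0.27), and the Fas ligand gene Fasl had 0 UMIs in both libraries, against 34 and 20 UMIs. Nkg7, a cytotoxic granule gene, was lower by a log2 ratio of -1.59 yet still stood at 852 and 835 CPM in members, against 3054 and 2563 CPM. Of 13 genes in the list of inhibitory receptors and Tox, 10 were lower and 0 higher, among them Lag3 at -2.68 and Tox at -2.38. Pdcd1, the PD-1 gene, stood at -3.97, and at -5.83 without the 4 cells.

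**Figure D2:**
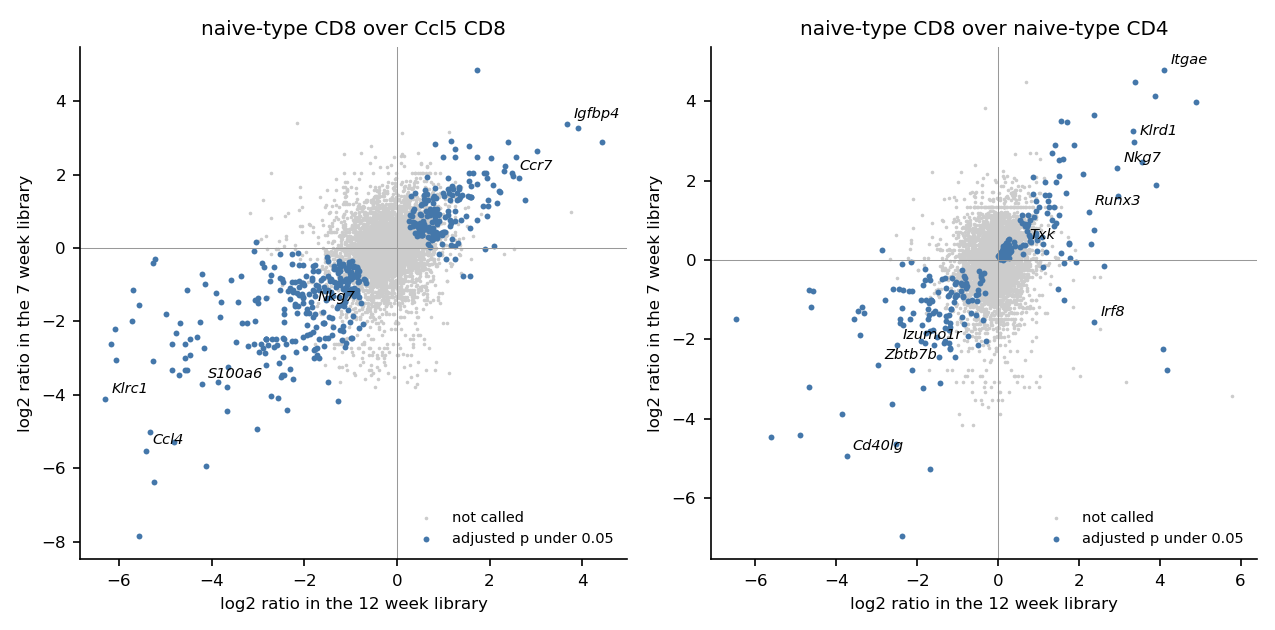
Each point is a gene, with its log2 ratio of members over Ccl5 CD8 T cells (left panel) or over naive-type CD4 T cells (right panel) in the 12 week library on the horizontal axis and in the 7 week library on the vertical axis. Genes that passed an adjusted p of 0.05 in the fit of both libraries are blue, and they number 178 higher and 281 lower against Ccl5 CD8 T cells and 178 higher and 126 lower against naive-type CD4 T cells.

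Members also differed from Ccl5 CD8 T cells in genes that interferon-gamma induces, and not all of these were on the effector side. Of 22 such genes 5 were higher in members and 2 lower, and without the 4 cells 9 were higher and 3 lower. The guanylate-binding protein Gbp2 had a log2 ratio of 1.20, while the chemokine Cxcl9 stood at -6.40. Igtp, an immunity-related GTPase, stood at 1.02 over both libraries but at -0.31 in the 7 week library alone. Leaving out the 4 cells raised the calls over all genes to 280 higher and 387 lower, and the fit without the library as a block gave 45 higher and 102 lower.

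Naive-type CD4 T cells, taken by the same rule with Cd4 present, both CD8 chains and Foxp3 at 0, were the second class set beside the members. They numbered 227 at 12 weeks and 68 at 7 weeks. The rule sets the CD4 and CD8 genes apart, so genes of either lineage were bound to follow, and it asks the same of Lef1, Dapl1, Ccr9 and Ccl5 in both classes, so likeness in genes that go with those was set by the choice of cells. In edgeR's quasi-likelihood fit, 178 of 4826 genes were higher in members (3.69%) and 126 lower (2.61%) at a Benjamini-Hochberg adjusted p of 0.05. Of the 24 naive T cell genes 2 were higher, 2 were lower and the median log2 ratio was 0.01, against 0.00 over all genes.

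Of the naive genes, Txk, a kinase of the Tec family, was higher in members, with 332 and 285 CPM against 217 and 219.7 CPM in naive-type CD4 T cells (log2 ratio 0.63, SE 0.17, adjusted p 0.01597, higher in 2 of 2 libraries). Igfbp4 went the other way, with 259 and 247 CPM in members and 452 and 374 CPM in naive-type CD4 T cells (log2 ratio -0.63, SE 0.16, adjusted p 0.008107, lower in 2 of 2 libraries). Cd28, the costimulatory receptor, was lower in members by a log2 ratio of -0.97. Ccr7, S1pr1 and Tcf7 had log2 ratios of 0.23, -0.08 and 0.01 and did not pass.

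Of 9 CD8 lineage genes 4 were higher in members and 0 lower, with a median log2 ratio of 0.35. The choice of cells by Cd4 and the CD8 chains bound such genes to differ, so their adjusted p is no separate support. Runx3 (chr4:135120652-135177990), the transcription factor that sets the CD8 fate, had 222 and 247 CPM in members and 46.4 and 106 CPM in naive-type CD4 T cells (log2 ratio 1.94, SE 0.23, adjusted p 2.196e-07, higher in 2 of 2 libraries). Nkg7 (chr7:43437073-43438249) had 852 and 835 CPM in members and 110 and 167 CPM in naive-type CD4 T cells (log2 ratio 2.81, SE 0.16). Itgae, the integrin chain CD103 that binds epithelial cadherin, had 31 and 5 UMIs in members, against 3 and 0 UMIs. Klrd1 (chr6:129591782-129598775), the CD94 chain of a lectin-like receptor, had 189 and 127 CPM in members and 18.1 and 15.2 CPM in naive-type CD4 T cells, the largest log2 ratio among the higher genes named by rank, 3.40 (SE 0.28). Ly6a, Ctsw and Plac8 were higher too, by log2 ratios of 1.47, 1.79 and 3.17, and Plac8 stood at 2.83 without the 4 cells. The transcripts of 3 cytotoxic or NK receptor genes, Nkg7, Klrd1 and Ctsw, were present in members that held no Ccl5.

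Of 12 CD4 lineage genes 9 were lower in members and 0 higher, with a median log2 ratio of -1.71. The choice of cells bound these genes to differ too. Cd40lg, the helper signal for B cells, had 3 and 0 UMIs in members and 89 and 38 UMIs in naive-type CD4 T cells. Zbtb7b, the factor that sets the CD4 fate, had 2 and 1 UMIs against 37 and 23 UMIs. The folate receptor-like gene Izumo1r had 54.2 and 50.6 CPM in members and 312 and 237 CPM in naive-type CD4 T cells (log2 ratio -2.34, SE 0.23, adjusted p 5.832e-09, lower in 2 of 2 libraries). Of 21 memory and effector genes 10 were lower in members and 1 higher, with a median of -0.74, among them S100a6 at -1.83 and Cd44 at -1.38. In the list of inhibitory receptors and Tox 5 of 8 genes were lower and 0 higher. Naive-type CD4 T cells held Pdcd1 at 101 and 136 CPM and Maf at 146 and 144 CPM. That class thus also carried transcripts known from helper and follicular helper T cells. How far these differences come from such cells was not tested. Irf8 and Bst2 passed as higher with all members, at 1.85 and 0.93, and stood at -0.21 and 0.13 without the 4 cells, where neither passed. The fit without the library as a block gave 7 higher and 3 lower genes, and requiring 2 UMIs of Lef1, Dapl1 and Ccr9 gave 12 and 13.

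**Figure D3:**
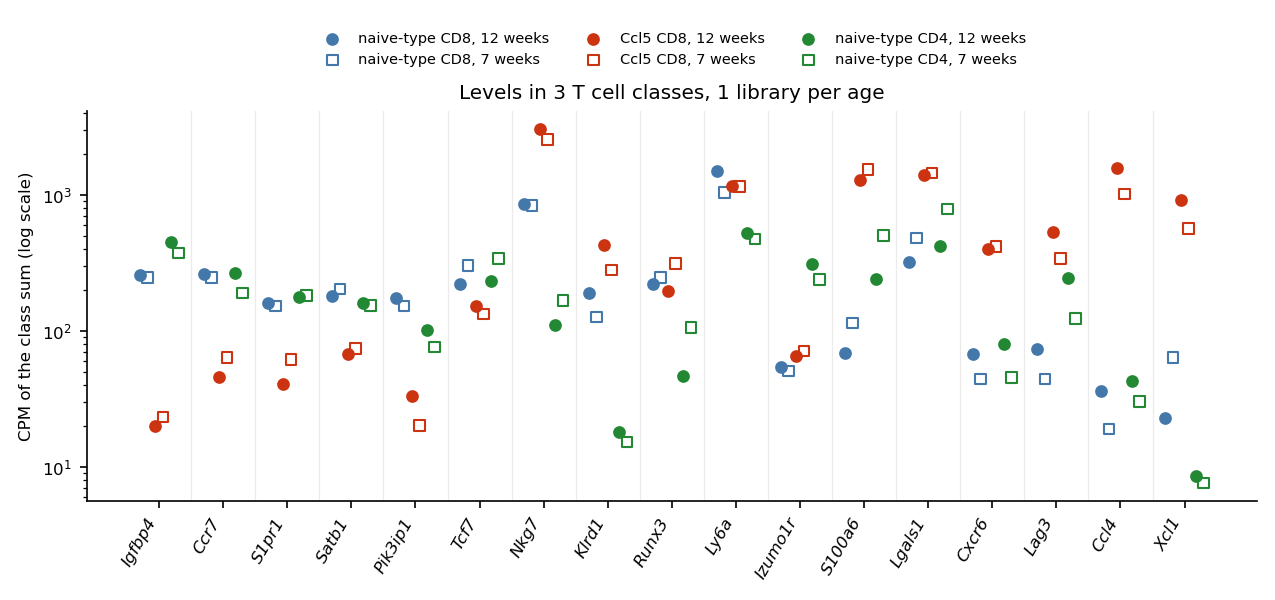
Gene levels in CPM on a log axis for members, Ccl5 CD8 T cells and naive-type CD4 T cells, with filled points for the 12 week library and open points for the 7 week library. Igfbp4 and Ccr7 lie high in members and low in Ccl5 CD8 T cells, Klrd1, Nkg7 and Runx3 lie high in members and low in naive-type CD4 T cells, and S100a6, Ccl4 and Xcl1 lie low in members against Ccl5 CD8 T cells.

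Within the members, cells with Dapl1 held more Igfbp4 than those without at 12 weeks, while at 7 weeks the difference was within counting error. At 12 weeks, without the 3 cells above, Igfbp4 stood at 329 CPM in 76 Dapl1-positive cells (129 UMIs) and 147 CPM in 42 Dapl1-negative cells (29 UMIs), a ratio of 2.23 (1.48 to 3.47). At 7 weeks it stood at 292 CPM (23 UMIs) and 229 CPM (16 UMIs), a ratio of 1.27 (0.644 to 2.58). Itgae at 12 weeks stood at 101 CPM in Ccr9-positive cells (20 UMIs) and 28.1 CPM in Ccr9-negative cells (11 UMIs), with an interval of their ratio of 1.64 to 8.31, and at 7 weeks it had 0 and 5 UMIs. Members with Dapl1 alone stood apart in some genes. At 7 weeks these 4 cells held 9 of the 10 Xcl1 UMIs and 12 of the 18 S100a6 UMIs of members, with Ccr7 at 276 CPM. At 12 weeks the 8 such cells had 335 CPM of Itgb1 and 51.5 CPM of Ccr7. Cells with Lef1 and Dapl1 but no Ccr9 had 45.4 and 280 CPM. Tcf7 stood at 283 and 198 CPM in these groups, in the same order. Whether such cells are naive was not tested. These splits use rule genes and are descriptions.

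Transcripts of other cell types were low in members once the 4 cells were left out. The 14 B cell markers summed to 414 CPM at 12 weeks and 357 CPM at 7 weeks, against 3689 and 1871 CPM in Ccl5 CD8 T cells and 461 and 1439 CPM in naive-type CD4 T cells. With the 4 cells the sums were 983 and 373 CPM. Most of that sum was MHC class II and Cd74, while Fcer2a and Pax5 were at 0. The 14 myeloid and dendritic markers summed to 417 CPM at 12 weeks and 276 CPM at 7 weeks, with Xcr1 and Csf1r at 0, and to 788 and 272 CPM with the 4 cells. Thymocyte genes summed to 37 and 4 UMIs, with Rag1, Rag2, Aqp11, Arpp21 and Endou at 0 in both libraries. The acinar transcripts, 18 genes of pancreatic enzymes, summed to 270 CPM in the 12 week library and 33.7 CPM in the 7 week library (ratio 8.01), and they were also higher at 12 weeks in Ccl5 CD8 T cells (13.2-fold) and naive-type CD4 T cells (8.99-fold). Their part in the age comparison was not tested.

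Between the ages, the interferon-gamma response list, summed, took a larger share of UMIs in members at 12 weeks (ratio 1.57). The quiescence list took a smaller one (ratio 0.694). Btg1 alone held 729 of its 3101 CPM at 12 weeks and 1759 of its 4467 CPM at 7 weeks. With scaling by the UMI total 5 of 13 interferon-gamma genes compared were past 1.5-fold higher, and with TMM scaling 8 of 13. Of 2667 genes with at least 30 UMIs in all, 368 were more than 1.5-fold higher at 12 weeks (13.8%) and 358 more than 1.5-fold lower (13.4%), and the median log2 ratio was -0.01. These are counts past a fold with no test. Scaling by TMM in place of the UMI total moved the median to 0.15 and the counts to 557 higher and 210 lower.

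Ifngr1, the ligand-binding chain of the interferon-gamma receptor, had 223 CPM at 12 weeks and 94.9 CPM at 7 weeks (ratio 2.35, 1.38 to 4.32). Its ratio was 1.18 (0.922 to 1.52) in Ccl5 CD8 T cells and 2.01 (1.39 to 2.99) in naive-type CD4 T cells. Igtp had 189 and 75.9 CPM (ratio 2.49, 1.37 to 4.95), and was 0.814-fold in Ccl5 CD8 T cells and 1.89-fold in naive-type CD4 T cells. Tap1, the peptide transporter for MHC class I, had 140 CPM at 12 weeks and 56.9 CPM at 7 weeks (ratio 2.45, 1.23 to 5.54), and was 0.960-fold in Ccl5 CD8 T cells and 1.41-fold in naive-type CD4 T cells. Rtp4, induced by type I interferon, had 35 UMIs at 12 weeks and 1 UMI at 7 weeks (ratio 9.08, 1.53 to 369), with ratios of 0.755 in Ccl5 CD8 T cells and 0.908 in naive-type CD4 T cells. Ifngr1, Igtp and Rtp4 were ranked by the interval bound nearest to 1, so that their intervals lie above 1 follows from the choice.

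Of 13 genes of the interferon-gamma list compared, 5 were past 1.5-fold higher and 0 lower, with a median log2 ratio of 0.50, and without the 4 cells 4 of 12 were higher. Among the 4 were Igtp, Gbp8 at 2.44 (0.974 to 7.86) and Irgm1 at 1.82 (0.899 to 4.15). Irf8 was also past 1.5-fold with all members, at 14.3 with the 3 plasmacytoid-marked cells and 2.52 (0.612 to 22.2) without them. Irf1 did not follow, with 213 CPM at 12 weeks and 228 CPM at 7 weeks (ratio 0.937, 0.644 to 1.40), nor did Gbp4 (ratio 1.02, 0.583 to 1.90). Summed over the list, members held 3800 CPM in the 12 week library and 2417 CPM in the 7 week library (ratio 1.57, 1.41 to 1.76). Ly6a alone was 1496 and 1038 CPM of these sums, and the list was not summed without it. Without the 4 cells the summed ratio was 1.47 (1.31 to 1.64), against 1.05 in Ccl5 CD8 T cells and 1.29 in naive-type CD4 T cells. Type I interferon genes moved less, at 1.14 (1.002 to 1.304) without the 4 cells, and MHC class I presentation genes at 1.17 (1.11 to 1.23). Under TMM scaling, with all members, 8 of the 13 interferon-gamma genes were past 1.5-fold higher and 0 lower. The summed ratio of that list was then 1.76.

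Interferon-gamma acts through a pair of DNA elements: the GAS element, and the ISRE, which IRF factors read. The promoters of 3 genes of the list are shown because they carry these letters close to the start. Each is the 250 bases before the start in RefSeq's GRCm38.p6 annotation, on the gene's strand, with matches in capitals. The GAS element was searched as TTCNNNGAA and the ISRE as GAAA, then 2 bases of any kind, then GAAA, both on either strand.
Igtp, chr11:58199306-58199555, plus strand: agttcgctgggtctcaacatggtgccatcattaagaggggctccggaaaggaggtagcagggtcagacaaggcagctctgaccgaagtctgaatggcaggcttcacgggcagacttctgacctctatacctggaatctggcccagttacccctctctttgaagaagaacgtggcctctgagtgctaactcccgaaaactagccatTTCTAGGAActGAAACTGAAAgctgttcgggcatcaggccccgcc
Irgm1, chr11:48871421-48871670, minus strand: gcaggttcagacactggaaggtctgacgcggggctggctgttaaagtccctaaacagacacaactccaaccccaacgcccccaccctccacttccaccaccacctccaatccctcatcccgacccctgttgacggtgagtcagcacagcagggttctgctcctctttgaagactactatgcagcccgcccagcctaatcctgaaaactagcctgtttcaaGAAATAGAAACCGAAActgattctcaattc
Gbp2, chr3:142620413-142620662, plus strand: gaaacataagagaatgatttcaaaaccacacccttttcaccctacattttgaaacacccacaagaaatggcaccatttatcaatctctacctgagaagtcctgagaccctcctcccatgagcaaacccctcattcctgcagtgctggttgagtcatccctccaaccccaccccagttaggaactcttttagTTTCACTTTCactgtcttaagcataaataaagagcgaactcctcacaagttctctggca
In Igtp the GAS match begins 45 bases before the start and the ISRE match 34 bases before it. Irgm1 has 2 overlapping ISRE matches, at 30 and 24 bases, and Gbp2 has 1, at 59 bases. Of the 13 genes compared, 8 had a promoter in the table, of which 4 held a GAS match, 5 an ISRE match and 7 either. Over all 32851 promoters of the same length, 7.02% held a GAS match and 2.98% an ISRE match. The 12 week over 7 week ratio was 2.49 (1.37 to 4.95) for Igtp, 1.82 (0.899 to 4.15) for Irgm1 and 1.17 (0.741 to 1.93) for Gbp2, with intervals that overlap.

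**Figure D4:**
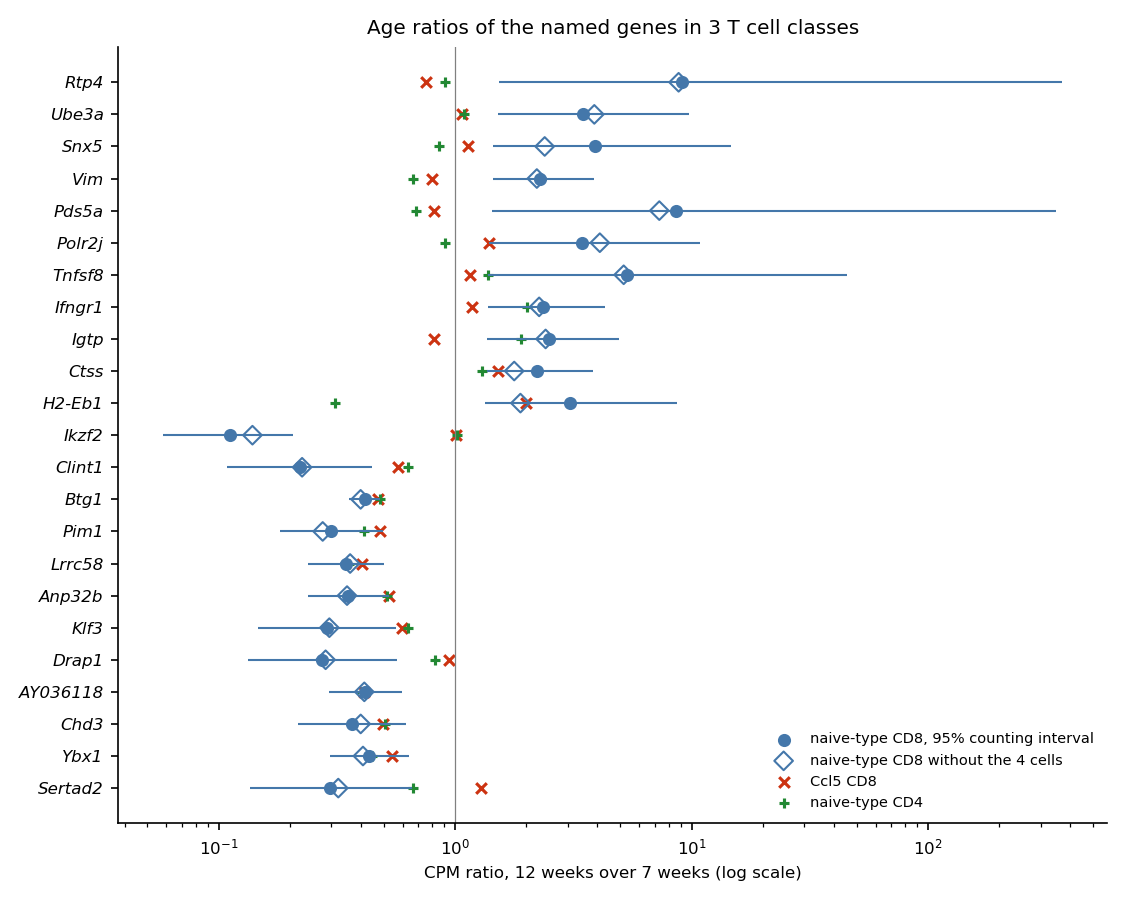
The 12 week over 7 week CPM ratio (log axis) of genes named by rank in members, with bars for the exact 95% interval, hollow diamonds for members without the 4 cells, and the same ratio in Ccl5 CD8 T cells (crosses) and naive-type CD4 T cells (plus signs). Btg1 lies at 0.41 in members and close to it in both other classes, while Ikzf2, at 0.11, lies near 1 in both.

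Of 14 quiescence genes compared, 7 were past 1.5-fold lower at 12 weeks and 0 higher, with a median log2 ratio of -0.58, and without the 4 cells 5 of 13 were lower. Under TMM scaling 3 were lower and 2 higher, with a median of -0.42. Btg1 (chr10:96617006-96622809), an antiproliferative gene, had 729 CPM (444 UMIs) at 12 weeks and 1759 CPM (278 UMIs) at 7 weeks, a ratio of 0.414 (0.356 to 0.483). Its ratio was 0.472 in Ccl5 CD8 T cells and 0.483 in naive-type CD4 T cells. Klf2, the factor that drives S1pr1 in the mouse, had 67.3 CPM at 12 weeks and 171 CPM at 7 weeks (ratio 0.394, 0.237 to 0.666), and Pdcd4, a translation inhibitor, 222 and 361 CPM (ratio 0.615, 0.448 to 0.853). The others past 1.5-fold were Foxo1, Peli1, Dgkz and Cdkn1b, at 0.584 to 0.656. Tsc22d3 and Txnip stood at 1.42 and 1.49. Summed, the list stood at 3101 CPM in the 12 week library and 4467 CPM in the 7 week library (ratio 0.694, 0.636 to 0.758). The ratio was 0.766 in Ccl5 CD8 T cells and 0.810 in naive-type CD4 T cells. Btg1 alone was 729 and 1759 CPM of the sums in members. In Ccl5 CD8 T cells Btg1 was 714 of 2566 CPM at 12 weeks and 1513 of 3349 CPM at 7 weeks. In naive-type CD4 T cells it was 752 of 3335 CPM and 1558 of 4118 CPM. The list was not summed without Btg1, so its summed ratios do not show a shift shared by the whole list. Under TMM scaling the summed ratio of the list in members was 0.777.

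The naive T cell genes outside the rule showed no common shift. Of 22 compared, 2 were higher and 4 lower, and their sum had a ratio of 0.957 (0.887 to 1.03), which TMM scaling turned to 1.07. Igfbp4 had 259 CPM at 12 weeks, against 247 CPM at 7 weeks (1.05, 0.737 to 1.53) and Ccr7 had 261 and 247 CPM (1.06, 0.741 to 1.54). Klf3, Klf2, Foxo1 and Foxp1 were the 4 lower genes, Klf3 with 34.5 CPM at 12 weeks, against 120 CPM at 7 weeks (ratio 0.287, 0.147 to 0.564).

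**Figure D5:**
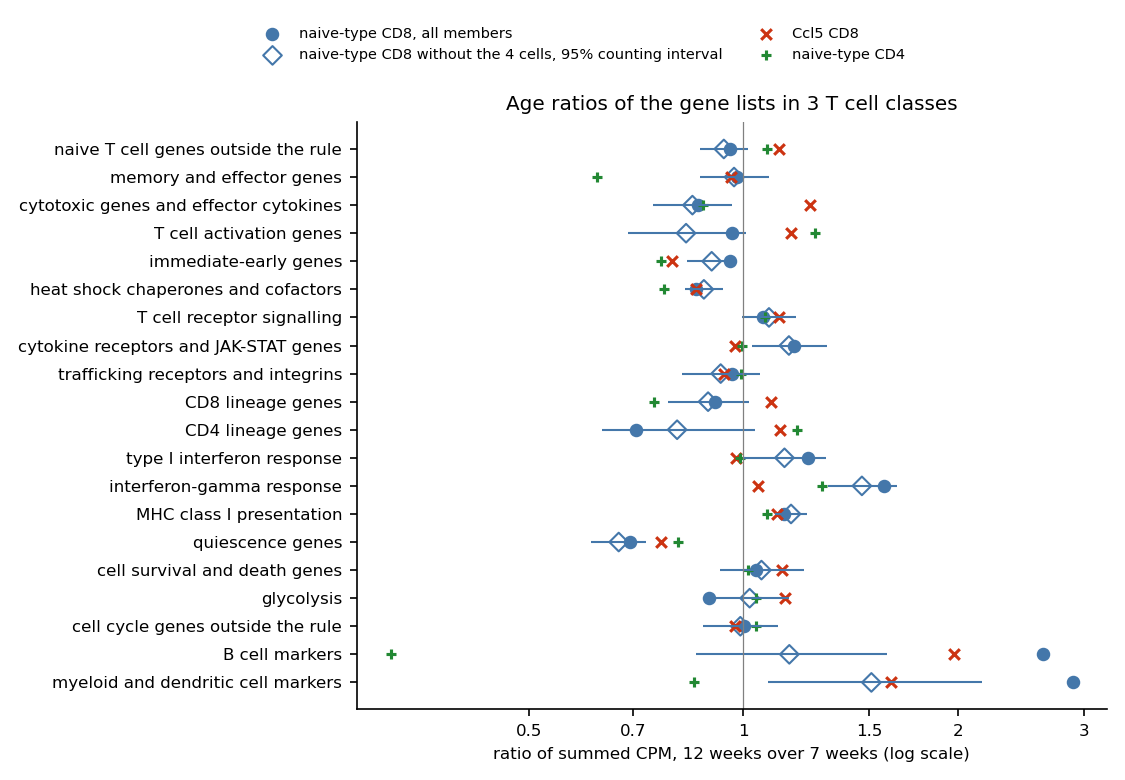
The 12 week over 7 week ratio of the summed CPM of gene lists (log axis), for members, members without the 4 cells, Ccl5 CD8 T cells and naive-type CD4 T cells. Bars are exact 95% intervals for members without the 4 cells only. The interferon-gamma list lies at 1.57 in members and the quiescence list, of which Btg1 is a large part, at 0.694. The naive T cell genes lie at 0.957.

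Ikzf2 (chr1:69531214-69687245), the transcription factor Helios of the Ikaros family, had the smallest ratio among the genes named by rank. It had 26.3 CPM (16 UMIs) at 12 weeks and 234 CPM (37 UMIs) at 7 weeks, a ratio of 0.112 (0.0583 to 0.207), and of 0.139 (0.0705 to 0.265) without the 4 cells. It was detected in 11 of 121 members at 12 weeks and 11 of 29 at 7 weeks, against 5 of 492 and 2 of 115 B cells, which should lack it. At 7 weeks the highest cells held 8, 8, 6, 5 and 3 of the 37 UMIs, and 1 of those with 8 is among the 4 cells. The interval counts UMIs as independent and leaves out spread between cells. Thinned to 1000 UMIs Ikzf2 remained in 2 and 3 cells, too few to compare. In Ccl5 CD8 T cells its ratio was 1.01 (0.761 to 1.34) and in naive-type CD4 T cells 1.02 (0.759 to 1.39). The difference between the classes was not tested.

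Several other genes named by rank had ratios well under 1 in each class. Pim1, a kinase induced by cytokines, had ratios of 0.300 in members, 0.480 in Ccl5 CD8 T cells and 0.412 in naive-type CD4 T cells. Lrrc58 had 0.346, 0.405 and 0.356, Anp32b 0.353, 0.528 and 0.516, Chd3, a chromatin remodeller, 0.365, 0.496 and 0.506, and Ybx1, an RNA-binding protein, 0.432, 0.543 and 0.445. The remaining lower genes were Clint1, Drap1, AY036118 and Sertad2, at 0.221 to 0.416 in members. In Ccl5 CD8 T cells Drap1 stood at 0.943 (0.623 to 1.45) and Sertad2 at 1.29 (0.838 to 2.04).

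Vim (chr2:13573927-13582826), the intermediate filament vimentin, was higher at 12 weeks in members, with 291 CPM (177 UMIs) against 127 CPM (20 UMIs) at 7 weeks, a ratio of 2.30 (1.44 to 3.85). Its ratio was 0.795 (0.709 to 0.893) in Ccl5 CD8 T cells and 0.667 (0.563 to 0.791) in naive-type CD4 T cells. Of the other 12 memory and effector genes compared, Itgb1, the integrin beta 1 chain, was at 0.417 (0.242 to 0.736), so the list did not move as a block: 3 of 13 were higher and 5 lower, and without the 4 cells 1 of 12 was higher and 3 lower. The remaining higher genes named by rank were Ube3a, Snx5, Pds5a, Polr2j, Tnfsf8, Ctss and H2-Eb1, with ratios of 2.22 to 8.56. Without the 4 cells Snx5 stood at 2.39 with a lower bound of 0.862 and H2-Eb1 at 1.89 (0.804 to 5.42).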

How the data were processed

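Per the submitters' processing notes, Cell Ranger 1.3.1 with the mm10 build produced the files, and its cell calling settings are not stated. What the authors deposited for each library is raw UMI counts for 27998 genes in every barcode. Barcodes were used when they had 200 genes or more and no more than 10% of UMIs from mitochondrial genes. This removed 8 barcodes at 12 weeks and 4 at 7 weeks, and no doublet caller was run. The members and the 28 gene lists (474 genes, 2 absent from the matrices) were chosen with earlier results of these data known.

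UMIs were summed per class and library. Age ratios used genes with at least 30 UMIs, with exact conditional binomial intervals (Python 3.11.15, numpy 2.4.6, scipy 1.17.1), and where one library had 0 UMIs of a gene, 3 counts stood in as a floor. Each UMI is treated as independent. Classes were compared with edgeR 4.0.16 (quasi-likelihood, filterByExpr, TMM, adjusted p by Benjamini-Hochberg, R 4.3.3), without the rule genes. The library was the block because both classes come from the same libraries. With 4 sums per fit, the p-values rest mostly on a spread shared across genes (prior degrees of freedom 30.1 and 33.7). They do not measure the spread between mice or between replicate libraries of an age. DESeq2 1.42.0 was an alternative. Scripts were tested on simulated data.

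Named genes were, by age, the 12 highest and 12 lowest by the interval bound nearest to 1, with no cell holding over 25% of the UMIs, and, by class, the 12 largest called changes each way with at least 50 UMIs, the same sign in both libraries. Mitochondrial, ribosomal protein, haemoglobin, acinar, endocrine, predicted and rule genes were left out of this ranking. Listed genes could be named besides. A few genes that these rules take are not reported here. Gene positions come from GENCODE vM21.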

Additional observations from a re-analysis of the deposited data

Results flagged for a closer look

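Vim had a 12 week over 7 week ratio of 2.30 in naive-type CD8 T cells and 0.667 in naive-type CD4 T cells, past 1.5-fold in opposite directions. The difference between the classes was not tested. H2-Eb1, an MHC class II chain, had a ratio of 3.07 in naive-type CD8 T cells, and 1.89 (0.804 to 5.42) without the 4 cells that carry transcripts of other cell types, against 0.311 in naive-type CD4 T cells. That difference was not tested either. In naive-type CD4 T cells the whole memory and effector list, which holds Vim, had a summed ratio of 0.623. The 14 B cell markers had one of 0.320 there. In naive-type CD8 T cells without the 4 cells these summed ratios were 0.970 and 1.16.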

How the results depend on the processing

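The share of naive-type CD8 T cells was higher at 12 weeks in each alternative, with ratios of 1.47 to 1.93 over all cells and 1.29 to 1.67 over CD8 T cells. The counts of genes in the age comparison moved with the minimum, fold, scaling and filter. They were 557 higher and 210 lower with TMM, 538 and 227 with median-of-ratios size factors, 1103 and 1190 with a minimum of 10 UMIs, 42 and 52 with a minimum of 100, 153 and 99 with a fold of 2, 76 and 63 with cells thinned to 1000 UMIs, and 116 and 102 with a stricter doublet filter, which left 41 and 14 members. Against Ccl5 CD8 T cells DESeq2 called 42 higher and 56 lower, no filter 112 and 344, thinning 64 and 72, and, in an alternative chosen after seeing the data, leaving out the 4 cells 280 and 387. Against naive-type CD4 T cells DESeq2 called 87 and 15, requiring 2 UMIs of Lef1, Dapl1 and Ccr9 12 and 13, and thinning 8 and 8. Among the named and listed genes called in that comparison, 39 of 78 were no longer called with DESeq2. The same held for 71 of 78 without the library as a block, 55 of 71 with 2 UMIs required, 27 of 38 with thinning and 0 of 78 with median-of-ratios size factors. Against Ccl5 CD8 T cells 53 of 136 such genes were no longer called with DESeq2. There, 51 of 136 were lost without the library as a block, 33 of 90 with thinning and 0 of 136 with median-of-ratios size factors. With no replicate block, that is, without pairing the classes by library, 45 and 102 genes were called against Ccl5 CD8 T cells and 7 and 3 against naive-type CD4 T cells. No paired analysis was possible for the ages because each had 1 library. The causes of these changes were not tested. Each library alone gave Igtp log2 ratios of 1.25 (12 weeks) and -0.31 (7 weeks) against Ccl5 CD8 T cells, and, against naive-type CD4 T cells, Bst2 1.47 and -0.74 and Irf8 2.38 and -1.56, where Irf8 stood at -0.21 without the 4 cells. The 7 week sums rest on 29 cells and 158065 UMIs, against 121 cells and 609154 UMIs at 12 weeks, which widens the intervals.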
